A study of Mus musculus with 10 samples.

Results

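The genes described here are the mouse genes whose symbol is a RIKEN clone name of the 1700 series, such as 1700008K24Rik. Every symbol in the gene list of the single-cell matrices made of 1700, 3 digits, a letter, 2 digits and Rik was taken, which gave 472 members of 32285 genes. The rule reads the symbol alone. RefSeq (GRCm38.p6, the assembly behind mm10) gave a position for 390 members, 379 by symbol and 11 by a synonym. Of these, 291 were annotated as long noncoding RNA (lncRNA), 94 as protein-coding and 5 as other kinds. The other 82 members had no position there and enter only the RNA results. The positioned members lay on all 19 autosomes, with 10 to 34 on each, and on X (11 members) and Y (1 member). Another annotated gene overlapped 158 of them, and whether reads were assigned by strand is not given in the sources used here, so levels of overlapping members are uncertain.

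RIKEN names were given to full-length cDNA clones sequenced before a function was known, and clones of the 1700 series were drawn from libraries of adult mouse testis. In the seminiferous tubule, spermatogonia divide and enter meiosis as spermatocytes, which give haploid round spermatids and then elongating spermatids that pack their DNA with protamines. Meiosis and the haploid phase are known for the transcription of many genes, coding and noncoding, that other tissues do not use.

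The series asked what the loss of SMARCA5, an ISWI-family ATPase that slides and spaces nucleosomes, does to the male germline. RNA was read cell by cell in droplets (3′ v3.1 chemistry, 15000 loaded cells each) from whole-testis suspensions of 2 samples of conditional knockout (cKO) mice, which carried Smarca5 fl/delta; Ddx4-Cre+. Chromatin accessibility was measured by ATAC-seq on 50000 sorted cells per library, with 2 cKO and 2 wild type C57BL6 libraries of cells gated by Hoechst signal for 4C DNA content, and 2 cKO and 2 wild type C57BL6 libraries of cKIT+ cells. Ddx4-Cre acts in germ cells, so somatic cells of a cKO testis keep the floxed allele beside the deleted one. Both single-cell samples were cKO, so RNA levels carry no comparison of genotypes. The labels call the 4C-sorted cells pachytene or pachytene-like, but every cell with replicated diploid DNA shares that content. For the cKIT+ libraries the labels describe both sorts, and the group was taken from their line on library construction. No age is given, and nothing states that replicates were separate animals, so p-values measure only the spread between these samples.

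Filters left 7413 and 12933 cells in the cKO samples, with 362 and 629 spermatogonia, 3118 and 5609 spermatocytes, 1637 and 2348 round spermatids, and 1139 and 1896 elongating spermatids. Somatic classes of at least 50 cells in both samples were Sertoli cells (325 and 523), Leydig cells (641 and 1452) and macrophages (143 and 247). A further 96 cells of sample 2 stayed unnamed, and 27 cell barcodes occurred in both samples. UMIs (unique molecular identifiers, 1 per captured transcript end) were summed per sample and stage and scaled to a fixed total per sample and stage (counts per 1e6 UMIs, CPM), with no division by gene length because the reads mark 3′ ends. Depth differed by stage, since spermatogonia gave 932066 and 1734558 UMIs in all, against 21487458 and 44235117 in spermatocytes. Smarca5 itself was at 334 and 219 CPM in spermatogonia, 76.9 and 60.6 CPM in spermatocytes, 10.4 and 4.52 CPM in round spermatids and 8.17 and 4.73 CPM in elongating spermatids. These 3′ counts lie outside what a deletion need remove and no wild-type single-cell sample was analysed here, so they check nothing about the knockout.

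Promoter sequences of a few members are shown because both their stage and their chromatin enter the results. Of the members, 316 had a RefSeq promoter window of 300 bases, 250 before the start and 50 after it. The first 4 belong to the member with the highest level among those highest in spermatogonia (chrX:53757782-53758081, minus strand), spermatocytes (chr17:49113484-49113783, minus strand), round spermatids (chr9:14770981-14771280, minus strand) and elongating spermatids (chr2:154548654-154548953, plus strand), all RefSeq GRCm38.p6. Capitals mark the motifs TAACNG, the core recognised by MYB-family factors, and GTTGCC, the core of sites bound by RFX-family factors, on either strand.
1700013H16Rik: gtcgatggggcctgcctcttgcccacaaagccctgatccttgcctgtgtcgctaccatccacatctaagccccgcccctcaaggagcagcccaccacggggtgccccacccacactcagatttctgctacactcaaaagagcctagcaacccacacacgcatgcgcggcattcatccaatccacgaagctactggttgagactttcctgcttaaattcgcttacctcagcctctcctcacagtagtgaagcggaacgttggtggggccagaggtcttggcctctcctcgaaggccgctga
1700008K24Rik: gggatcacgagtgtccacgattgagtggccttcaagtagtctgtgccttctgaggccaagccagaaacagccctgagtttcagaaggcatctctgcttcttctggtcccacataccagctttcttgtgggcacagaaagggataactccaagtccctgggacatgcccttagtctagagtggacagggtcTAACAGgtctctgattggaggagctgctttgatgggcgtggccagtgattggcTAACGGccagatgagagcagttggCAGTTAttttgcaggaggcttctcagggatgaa
1700012B09Rik: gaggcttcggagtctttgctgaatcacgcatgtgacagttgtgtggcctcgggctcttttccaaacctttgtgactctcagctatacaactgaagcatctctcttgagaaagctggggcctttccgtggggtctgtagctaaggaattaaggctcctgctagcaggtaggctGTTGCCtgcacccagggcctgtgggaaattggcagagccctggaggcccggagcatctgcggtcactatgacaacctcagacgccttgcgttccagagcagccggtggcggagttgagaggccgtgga
1700003F12Rik: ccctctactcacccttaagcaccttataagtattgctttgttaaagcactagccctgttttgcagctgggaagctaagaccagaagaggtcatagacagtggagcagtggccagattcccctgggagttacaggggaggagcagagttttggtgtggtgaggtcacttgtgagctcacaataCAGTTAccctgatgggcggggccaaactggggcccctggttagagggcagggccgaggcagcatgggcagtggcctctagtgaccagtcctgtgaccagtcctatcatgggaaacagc

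The next 4 are promoters where the 4C-sorted libraries of the genotypes differed. The windows of 1700024P04Rik (chr13:98984516-98984815, minus strand) and 1700012B07Rik (chr11:109827997-109828296, minus strand) lay under a peak in the cKO libraries alone. Those of 1700029J03Rik (chr16:93458823-93459122, minus strand) and 1700126H18Rik (chr5:66191286-66191585, minus strand) lay under a peak in the wild-type libraries alone. The same motifs are in capitals.
1700024P04Rik: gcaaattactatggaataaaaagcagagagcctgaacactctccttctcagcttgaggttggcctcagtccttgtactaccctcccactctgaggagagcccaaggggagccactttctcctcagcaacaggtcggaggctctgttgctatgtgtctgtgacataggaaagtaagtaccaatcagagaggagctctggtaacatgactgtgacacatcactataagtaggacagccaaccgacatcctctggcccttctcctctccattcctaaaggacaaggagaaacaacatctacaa
1700012B07Rik: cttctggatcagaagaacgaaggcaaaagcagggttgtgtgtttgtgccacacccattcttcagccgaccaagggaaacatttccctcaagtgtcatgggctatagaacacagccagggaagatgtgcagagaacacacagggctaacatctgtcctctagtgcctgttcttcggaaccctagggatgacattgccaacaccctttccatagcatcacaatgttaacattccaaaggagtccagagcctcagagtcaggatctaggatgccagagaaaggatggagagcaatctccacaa
1700029J03Rik: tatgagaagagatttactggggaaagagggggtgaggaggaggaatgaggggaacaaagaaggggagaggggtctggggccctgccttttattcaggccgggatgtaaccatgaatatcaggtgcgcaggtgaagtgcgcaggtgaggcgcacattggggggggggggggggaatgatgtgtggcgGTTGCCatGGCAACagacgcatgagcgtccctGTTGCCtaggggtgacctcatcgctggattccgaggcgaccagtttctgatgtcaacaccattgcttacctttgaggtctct
1700126H18Rik: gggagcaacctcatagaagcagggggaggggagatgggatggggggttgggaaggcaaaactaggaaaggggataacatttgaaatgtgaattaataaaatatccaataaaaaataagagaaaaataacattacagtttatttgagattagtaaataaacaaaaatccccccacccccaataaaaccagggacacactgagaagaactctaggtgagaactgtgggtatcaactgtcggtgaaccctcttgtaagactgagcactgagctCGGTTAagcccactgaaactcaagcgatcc

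The window of 1700008K24Rik held TAACNG 3 times, and that of 1700029J03Rik held GTTGCC 3 times, while the windows of 1700013H16Rik, 1700024P04Rik and 1700012B07Rik held neither. Over all members with a window, 35.8% held TAACNG and 21.5% held GTTGCC, against 23.2% and 12.7% of 27025 RefSeq promoters of the same length. Both motifs were found in 22 members and neither in 157. Among members highest in spermatocytes 42.6% held TAACNG, against 25.6% of all promoters of genes highest there. GTTGCC was in 24.5% of members highest in round spermatids and 21.1% of those highest in elongating spermatids, against 16.4% and 15.6% of all genes of those stages. The cAMP response element TGACGTCA was in 2.22% of member windows and 1.85% of all windows, and TATAAA in 12.7% and 14.2%. Member windows had a median GC content of 50.2%, against 52.7% over all promoters, and a median CpG observed-to-expected ratio of 0.24, against 0.39. Another gene started head to head within 1000 bp of 18.7% of them, against 12.4% of all. Of the member windows, 238 belonged to lncRNA genes. Their medians were 49.3% GC and a CpG ratio of 0.218, against 48.7% and 0.247 over lncRNA promoters. The 78 protein-coding windows had 52.8% and 0.331, against 56.3% and 0.577. TAACNG was in 36.6% of the lncRNA and 33.3% of the protein-coding windows, against 27.5% and 20.8% of all promoters of those kinds. These matches describe letters in a window and carry no test.

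Most members had their highest level in spermatids. Among the 458 members with at least 10 UMIs over the germ stages of each sample, 163 (35.6%) had their highest level in elongating spermatids in both samples and 153 (33.4%) in round spermatids. Another 78 (17%) were highest in spermatocytes and 7 (1.53%) in spermatogonia, and in 57 (12.4%) the samples gave different stages. The 7 were 1700003M07Rik, 1700011D18Rik, 1700011M02Rik, 1700013H16Rik, 1700018G05Rik, 1700086O06Rik and 1700112D23Rik. Which spermatid stage held more members turned with the setting, from 163 elongating against 153 round to 124 against 166 with clearly named clusters alone, 112 against 156 with called doublets kept, 145 against 163 at Leiden resolution 2 and 136 against 150 with at least 2000 UMIs per cell. The samples gave different stages for up to 87 members there. The highest stage was read from CPM, which leave out the scaling factors (TMM) of the edgeR tests below. Those factors were 1.78 and 1.54 for spermatogonia, 1.03 and 0.999 for spermatocytes, 0.979 and 0.780 for round and 0.660 and 0.510 for elongating spermatids. A larger factor lowers a level on the scale of the tests. No setting took the stages on that scale, so the counts per stage hold for CPM alone. Over all 21572 genes with as many UMIs spermatogonia held the most, with 33% highest there, 18.0% in spermatocytes, 18.4% in round spermatids and 13% in elongating spermatids. The other large group of RIKEN names, the 49 series, held 2.15%, 22.2%, 38.2% and 21.1% at those stages (743 genes). RIKEN names outside both series held 22.8%, 22%, 18.7% and 12.7% (782 genes). Of 42 named genes of spermiogenesis, such as the sperm ion channel subunits Catsper1 and Catsper2, 2, 11, 10 and 14 were highest at those stages.

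**Figure D1:**
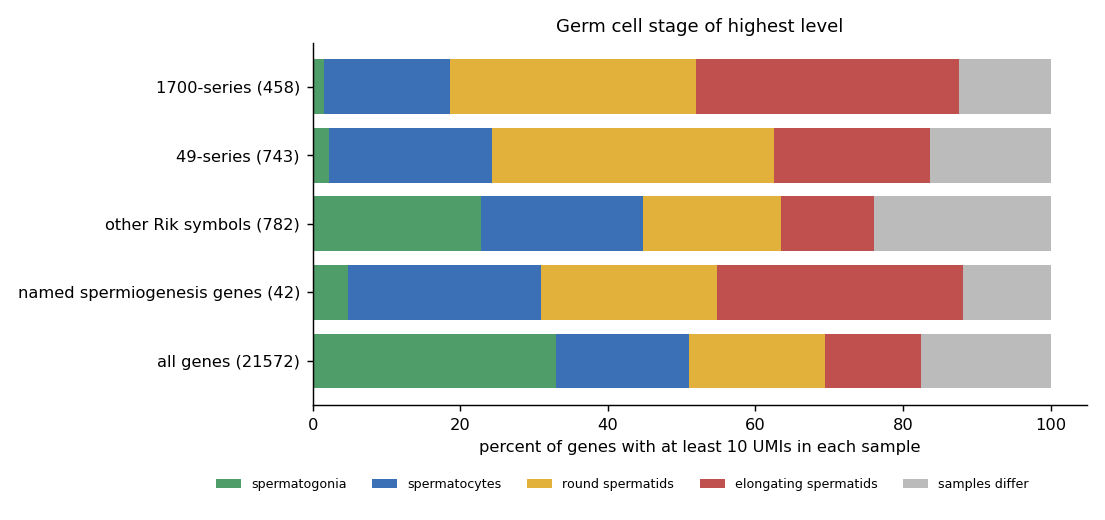
Each bar splits a list of genes by the germ cell stage of highest level in both cKO samples, in percent of the genes with at least 10 UMIs over the germ stages of each sample (number in brackets), and grey marks genes whose samples differed. Round and elongating spermatids together fill most of the 1700-series bar, while spermatogonia fill 1.53% of it, against 33% of the bar of all genes.

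As a share of all UMIs, the members took 0.409% and 0.436% in spermatogonia, 1.91% and 2.16% in spermatocytes, 4.50% and 4.90% in round spermatids and 5.64% and 5.82% in elongating spermatids of samples 1 and 2. The order of the stages was the same in both samples, and the samples lay closer to each other than neighbouring stages did. Within spermatocytes, leptotene or zygotene cells were at 1.10% and 0.700% and pachytene or diplotene cells at 2.05% and 2.26%. The 10 most abundant members made up 23.7% and 28.8% of the members' UMIs in elongating spermatids and 15.2% and 19.0% in round spermatids. At their own highest stage, members had a median level of 11.8 CPM when highest in spermatogonia, 40.1 CPM in spermatocytes, 53.9 CPM in round spermatids and 72.0 CPM in elongating spermatids. At least 100 CPM were reached there by 1, 28, 52 and 76 members. In both samples the highest stage stood at least 2-fold above the next for 28 of 78 spermatocyte members, 36 of 153 round spermatid members and 76 of 163 elongating spermatid members. Thus many members spread over neighbouring stages. Of the 78 members highest in spermatocytes, 62 were higher in pachytene or diplotene than in leptotene or zygotene cells in both samples and 9 were lower in both. The remaining 14 of the 472 members were under the UMI minimum, 2 of them with no germ cell UMI in either sample.

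**Figure D2:**
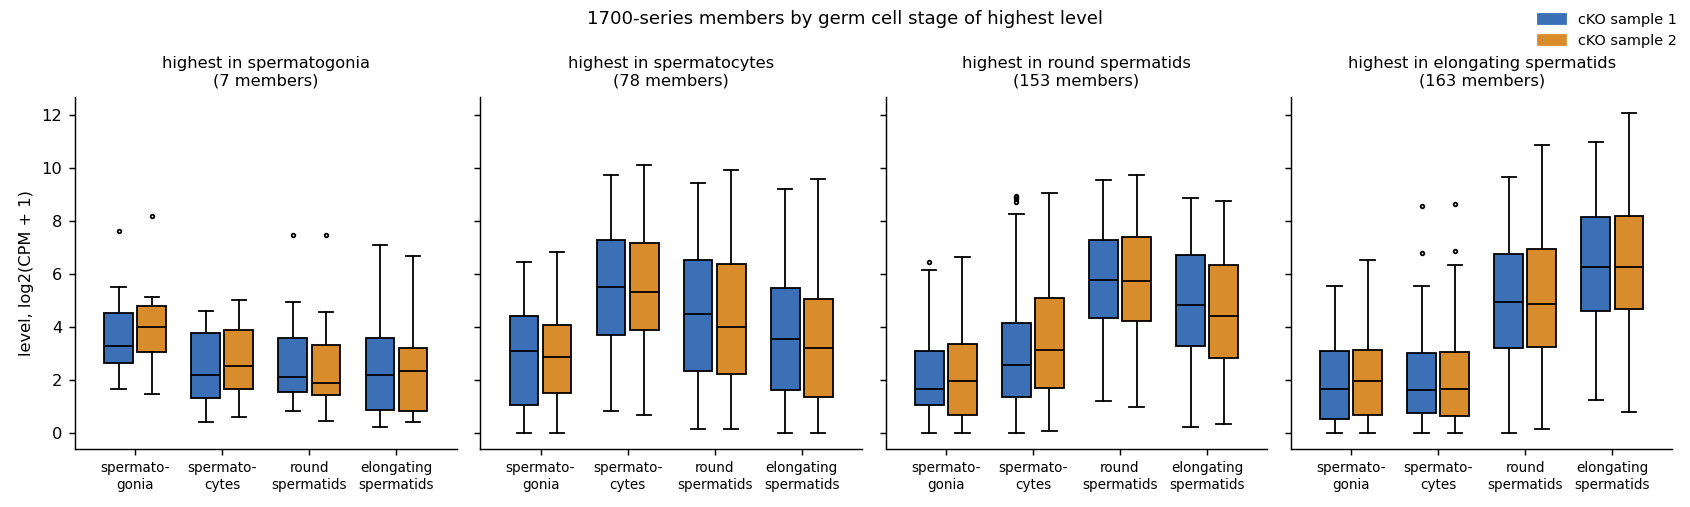
Boxes show the level of members, log2(CPM + 1), at each germ cell stage in cKO sample 1 (blue) and sample 2 (orange), in 1 panel per stage of highest level (box, quartiles; line, median; whiskers, 1.5 times the quartile range). Members highest in elongating spermatids are already present in round spermatids, and those highest in spermatocytes decline over both spermatid stages.

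Coding and noncoding members both peaked mostly in spermatids. Of 92 protein-coding members 37 were highest in elongating spermatids, 38 in round spermatids, 13 in spermatocytes and 1 in spermatogonia. The 284 lncRNA members gave 102, 84, 52 and 5 for the same stages. Of the 10 X-linked members with enough UMIs, 6 were highest in elongating spermatids, 3 in spermatogonia and none in spermatocytes or round spermatids, a difference from autosomal members that was not tested. Of 371 autosomal members, 66 were highest in spermatocytes. The X chromosome is known to be silenced in pachytene spermatocytes, as background. The X-linked lncRNA 1700010D01Rik was at 30 and 39.2 CPM in spermatogonia, 17.9 and 25.6 CPM in spermatocytes, 457 and 489 CPM in round spermatids and 1216 and 1127 CPM in elongating spermatids. The X-linked transcribed pseudogene 1700084M14Rik was at 5.96 and 6.10 CPM in spermatocytes and 498 and 408 CPM in elongating spermatids. The protein-coding 1700013H16Rik (chrX:53742901-53757970), the most abundant member among those highest in spermatogonia, had 195 and 288 CPM there, 22.9 and 31.1 CPM in spermatocytes, 176 and 175 CPM in round spermatids and 136 and 102 CPM in elongating spermatids. Its spermatocyte levels were the lowest of its stages in both samples. It was lower in pachytene or diplotene cells, at 7.95 and 15.6 CPM, than in leptotene or zygotene cells, at 107 and 253 CPM.

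The highest single levels were reached in elongating spermatids. 1700003F12Rik, a short protein-coding gene on chromosome 2 (chr2:154548904-154550050) that overlaps Necab3, had 1589 and 4325 CPM there and 604 and 1873 CPM in round spermatids. The samples differed by more than for the other leading members, and sample 2 was higher at every germ stage. The lncRNA 1700027A15Rik (chr1:73016036-73025508) had 2006 and 1847 CPM in elongating spermatids and 146 and 154 CPM in round spermatids, with 35.2 and 14.0 CPM in spermatocytes. In both samples its level in elongating spermatids was over 10 times that in round spermatids. The protein-coding 1700009N14Rik (chr4:39450293-39451780) had 1416 and 1493 CPM in elongating spermatids, 1700001C19Rik 1232 and 1502 CPM and 1700019N19Rik 1151 and 1520 CPM. 1700024P04Rik (chr13:98984090-98984565), now named H2bl1 for an H2B-like histone, had 1531 and 1324 CPM in elongating spermatids, 542 and 516 CPM in round spermatids and 34.3 and 32.7 CPM in spermatocytes. 1700029H14Rik, 1700074P13Rik, 1700019D03Rik and the X-linked 1700010D01Rik completed the 10 highest members, with means from 1067 to 1171 CPM in elongating spermatids. Among members highest in spermatocytes, the lncRNA 1700008K24Rik (chr17:49112264-49113533) led with 786 and 1088 CPM, and it stayed at 684 and 963 CPM in round and 594 and 752 CPM in elongating spermatids. The protein-coding 1700029P11Rik (chr15:81980540-81981563) had 608 and 594 CPM in spermatocytes, 168 and 141 CPM in round spermatids and 40.8 and 16.6 CPM in elongating spermatids, a drop at each later stage. In round spermatids the protein-coding 1700012B09Rik (chr9:14756592-14771049) led with 738 and 665 CPM, against 412 and 497 CPM in spermatocytes and 181 and 103 CPM in elongating spermatids.

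Entry into meiosis raised about as many members as it left without a call. In spermatocytes over spermatogonia, 215 of the 437 members that passed the filter on low counts rose and 8 fell (edgeR quasi-likelihood test with the sample as a block, Benjamini-Hochberg adjusted p under 0.05 over 19420 genes), where 29.3% of all genes rose and 23.3% fell. The members' median log2 fold change was 1.87, against 0.32 over all genes. It was 1.35 with the 43 members at 0 UMIs on one side put at the level of 3 counts over the group. Those bounds are ratios of CPM without the scaling of the fit, so this median mixes unlike scales. In spermatogonia 124 and 84 of the 472 members had no UMI, and 3 counts there were worth 3.22 and 1.73 CPM. The 8 members with the largest fitted folds all had 0 UMIs in spermatogonia, so only bounds can be given, against 3 counts over both samples. 1700021L23Rik (lncRNA, chr4:124302835-124332720) had 127 and 275 UMIs in spermatocytes, 5.91 and 6.22 CPM, which was at least 5.44-fold higher. 1700031A10Rik, 1700024B18Rik and 1700012E03Rik were at least 3.80-, 3.71- and 3.42-fold higher, and 1700021P04Rik, 1700011L03Rik, 1700060C20Rik and 1700081H04Rik at least 2.29-, 2.16-, 1.42- and 1.27-fold. These were low-level transcripts, all under 7 CPM in spermatocytes.

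Among the members that fell at this step, 1700025G04Rik (protein-coding, chr1:151884524-152091121) had 2.70 and 1.90 CPM in spermatocytes, against 25.7 and 26.5 CPM in spermatogonia, a log2 fold change of -2.80 ± 0.41 (SE, edgeR adjusted p = 1.9e-06). The X-linked 1700013H16Rik described above fell by 2.46 ± 0.38 on the log2 scale (edgeR adjusted p = 2.9e-06). 1700031P21Rik (lncRNA) had 7.17 and 10.1 CPM in spermatocytes, against 27.9 and 30.6 CPM in spermatogonia, and a log2 fold change of -1.06. The other named falls, 1700015O11Rik, 1700087I21Rik, 1700011D18Rik and 1700065J18Rik, rested on 2 to 8 UMIs per sample in spermatogonia. The count of 8 falls was 5 without the sample as a block and ranged from 3 to 13 under other settings.

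The haploid transition moved the members most. In round spermatids over spermatocytes 303 of 437 members rose and 34 fell (edgeR), where 32.0% of all genes rose and 31.1% fell, and the median log2 fold change was 3.23 for members and -0.07 for all genes. The lncRNA 1700017M07Rik (chr3:35256459-35276131) had 63.5 and 99.6 CPM in round spermatids, against 1.26 and 1.22 CPM in spermatocytes, a log2 fold change of 6.25 ± 0.44 (SE, edgeR adjusted p = 5.4e-11). 1700061E18Rik had 48.6 and 59.4 CPM in round spermatids, against 0.884 and 1.42 CPM in spermatocytes. 1700023G09Rik had 38.7 and 32.6 CPM, against 0.186 and 0.927 CPM, and 1700122D07Rik 34.7 and 31 CPM, against 0.326 and 1.04 CPM. In each of them the groups stood far apart, and spermatocytes had fewer than 100 UMIs in either sample. 1700019J19Rik, 1700122O11Rik (protein-coding), 1700128I11Rik and 1700066N21Rik completed the 8 largest rises, with log2 fold changes from 5.77 to 6.01.

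Of the 34 members that fell at this step, 4 had no call into spermatocytes. The lncRNA 1700009C05Rik (chr6:81900465-81910800), which overlaps Gcfc2, had 10.2 and 5.83 CPM in round spermatids, against 197 and 173 CPM in spermatocytes, a log2 fold change of -4.36 ± 0.40 (SE, edgeR adjusted p = 2.8e-10). The protein-coding 1700006A11Rik had 29.5 and 13.9 CPM in round spermatids, against 279 and 183 CPM in spermatocytes, and fell by 3.26 on the log2 scale. 1700112H15Rik had 0 and 8 UMIs in round spermatids, against 130 and 312 UMIs in spermatocytes, and fell by 4.62. 1700012E03Rik, 1700064H15Rik, 1700040D17Rik, 1700123J17Rik and 1700026J14Rik fell by 2.40 to 3.08.

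Spermatid elongation split the members. In elongating over round spermatids 139 of 437 members rose and 58 fell (edgeR), where 16.5% of all genes rose and 15.8% fell, and the median log2 fold change was 0.31 for members and -0.03 for all genes. Of the 1139 elongating spermatids of sample 1, 649, with 2059543 of 5999633 UMIs, lay in clusters with a clear name. So did 1566 of the 2348 round spermatids of sample 2. The rest lay in clusters whose marker score was within 0.05 of another class. All round spermatids of sample 1 and all elongating spermatids of sample 2 were in clearly named clusters. The lncRNA 1700084D21Rik (chr13:113136076-113144012) had 123 and 110 CPM in elongating spermatids, against 4.23 and 2.63 CPM in round spermatids, a log2 fold change of 5.75 ± 0.43 (SE, edgeR adjusted p = 1.5e-09). 1700003O11Rik had 302 and 348 CPM in elongating spermatids, against 11.2 and 19.6 CPM in round spermatids, and rose by 4.96 on the log2 scale. 1700031F10Rik (chr6:88222268-88223256), whose current name Dnajb8 marks a DnaJ-family co-chaperone, had 165 and 210 CPM in elongating spermatids, against 9.0 and 12.5 CPM in round spermatids. It rose by 4.71 ± 0.39 on the log2 scale (SE, edgeR adjusted p = 2.8e-09). 1700015O11Rik, 1700034G24Rik, 1700048M11Rik, 1700008B11Rik and 1700060C16Rik rose by 4.28 to 5.08.

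The steepest fall at elongation was that of the lncRNA 1700041C23Rik (chr9:57175275-57186108), with 15.0 and 3.73 CPM in elongating spermatids, against 325 and 161 CPM in round spermatids, a log2 fold change of -4.27 ± 0.54 (SE, edgeR adjusted p = 5.9e-07). The protein-coding 1700018F24Rik (chr5:145042953-145045681) had 25.5 and 6.59 CPM, against 302 and 262 CPM, and the lncRNA 1700021F02Rik 6.50 and 2.53 CPM, against 92.1 and 90.2 CPM in round spermatids. The groups did not overlap in any of these 3 genes, and in each sample 1 was the higher in elongating spermatids. 1700029J07Rik, 1700001F09Rik, 1700065O20Rik, 1700124L16Rik and 1700029E06Rik fell by 2.38 to 2.70. Keeping called doublets left 60 rises and 28 falls at this step. Sample 1 then had 658 elongating and 2555 round spermatids. The count over all genes under that setting is not given beside it, so whether the drop is particular to members is unknown.

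**Figure D3:**
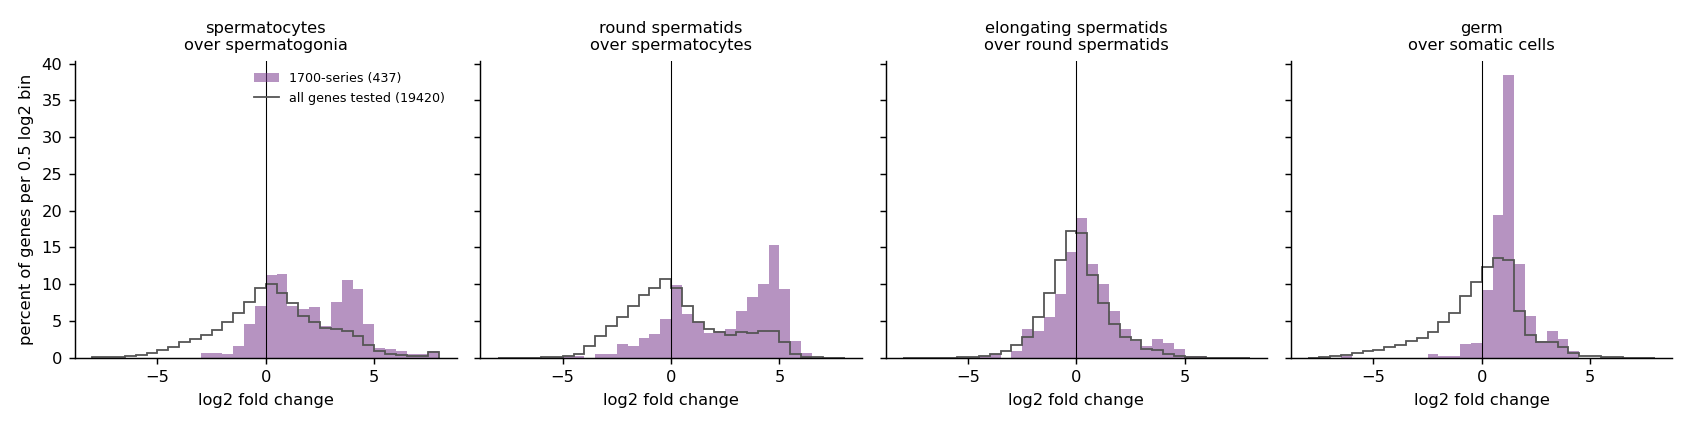
Histograms of the fitted log2 fold change (x axis; bins of 0.5, values past 8 in the end bins) for 437 members (filled) and all 19420 genes tested (line), in percent of each set, for the steps between germ cell stages and for germ over somatic cells. The members' median is 3.23 in round spermatids over spermatocytes, with a peak of members near 5, and 0.31 in elongating over round spermatids, with members on both sides of 0.

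Read over the 3 steps, the commonest course was no call into meiosis, a rise in round spermatids and a further rise in elongating spermatids, which 111 members took (25.4%, against 7.26% of all genes tested). A rise in round spermatids as the sole call was seen for 80 members (18.3%, against 9.59%), and a rise in spermatocytes as the sole call for 76 (17.4%, against 8.99%). Rises at the first and second step with no call at the third were seen for 57 (13%, against 3.71%), and rises at all 3 steps for 14 (3.20%, against 0.984%). A rise in spermatocytes followed by a fall in round spermatids and no further call marked 20 members (4.58%, against 7.31%). Adjacent steps share the stage between them, so the calls at neighbouring steps are not independent. The 49 series gave 360 rises and 12 falls of 683 genes into spermatocytes, 429 and 92 into round spermatids and 131 and 124 into elongating spermatids. Of the 42 named spermiogenesis genes, 30 rose and 2 fell at the first step, 23 and 6 at the second and 13 and 9 at the third.

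In somatic cells members were seen at levels that differed by cell type, with a UMI for 436 and 446 of the 472 in Sertoli cells. Leydig cells held a UMI of 379 and 421 members, and macrophages of 286 and 360. In germ over somatic cells 275 of 437 members rose and 7 fell (edgeR), where 29.0% of all genes rose and 28.6% fell, and the median log2 fold change was 1.22, against 0.23 over all genes. The members took 3.16% and 2.64% of all UMIs in Sertoli cells, more than in spermatocytes. Leydig cells were at 0.329% and 0.259% and macrophages at 0.541% and 1.05%. Relative to its highest germ stage, a member stood at a median of 37.4% and 31.2% in Sertoli cells. The medians for Leydig cells were 3.63% and 2.88%, and those for macrophages 4.99% and 6.73%. Elongating spermatid transcripts were in the same cells. Their 10 markers, all above 0 in every class, summed to 114526 and 134752 CPM in elongating spermatids, against 49351 and 48673 CPM in Sertoli cells. They reached 2536 and 1714 CPM in Leydig cells, 4995 and 3935 CPM in macrophages and 2378 and 2364 CPM in spermatogonia. Prm1, a protamine of spermatids, was at 11780 and 11973 CPM in Sertoli cells, while Leydig cells had 671 and 430 CPM and macrophages 1263 and 817 CPM. The Sertoli markers summed to 5879 and 16735 CPM in Sertoli cells, with 10 of 10 above 0 in both samples, against 5855 and 6127 CPM in Leydig cells. In sample 1 the Sertoli class was thus at nearly the same sum as the Leydig class, and its name is less firm there. How much of a member's somatic level came from free RNA, cell fragments or mixed droplets was not tested.

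Barcodes of 10 to 100 UMIs in sample 1, taken as a measure of RNA outside whole cells, gave a further level, with 15453 barcodes and 1078100 UMIs. Members took 2.92% of their UMIs, and the elongating markers summed to 31745 CPM. Across the 458 members, levels in somatic classes of sample 1 followed those in these barcodes with Spearman correlations of 0.958 for Sertoli cells, 0.893 for Leydig cells and 0.825 for macrophages, a description over genes of 1 suspension. Sertoli levels also ranked like elongating spermatid levels, at 0.870 and 0.912. Round spermatids, at 0.857 and 0.872, and spermatogonia, at 0.835 and 0.835, were close behind. For Leydig cells the closest germ stage was spermatogonia, at 0.832 and 0.899. In macrophages of sample 2 the closest germ stage was spermatocytes, at 0.884, and 1700008K24Rik was at 450 CPM there, against 80.8 CPM in macrophages of sample 1. Keeping called doublets left 149 rises and 4 falls in germ over somatic cells, again with no count over all genes beside it. Whether that change is particular to members is therefore unknown.

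**Figure D4:**
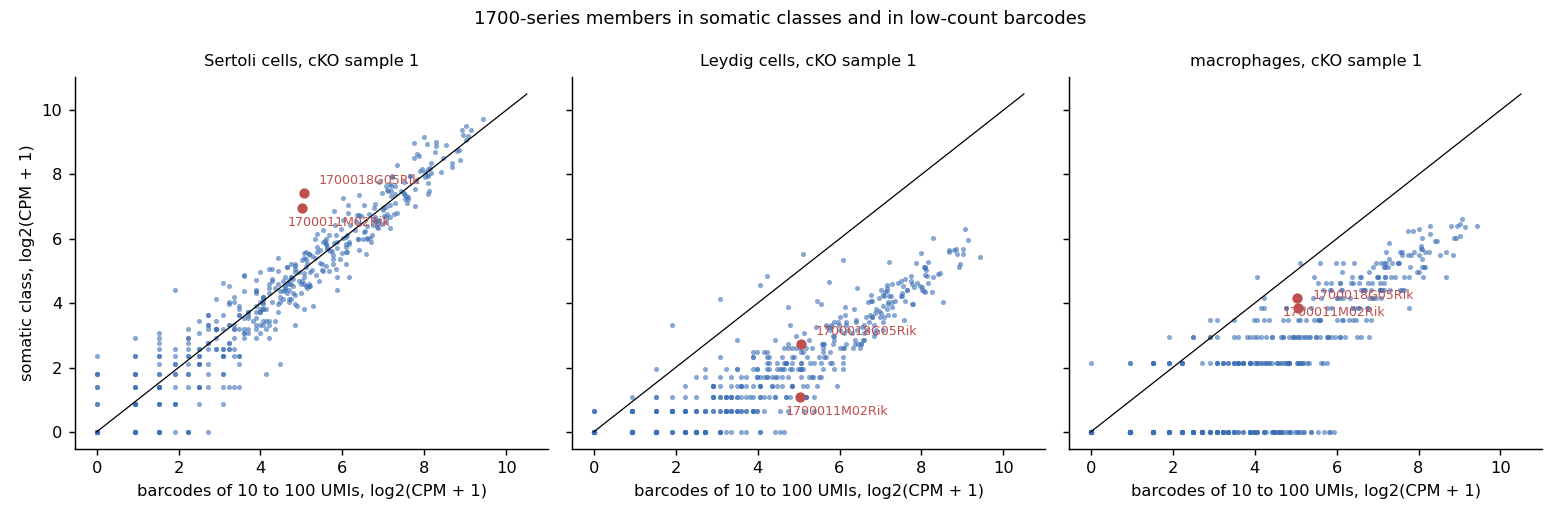
Each point is a member, with its level in barcodes of 10 to 100 UMIs on the x axis and in Sertoli cells, Leydig cells or macrophages on the y axis, both log2(CPM + 1) in cKO sample 1, and the line marks equal levels. Members follow the line in Sertoli cells and run parallel below it in Leydig cells and macrophages, and the marked 1700018G05Rik and 1700011M02Rik stand above it in Sertoli cells.

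In germ over somatic cells 22 of 437 members had a log2 fold change below 0, and 7 of them passed the test (edgeR). A pair of X-linked lncRNA genes that lie 18.72 kb apart marked Sertoli cells. 1700018G05Rik (chrX:102928372-102929107) had 2.32 to 12.7 CPM over the germ stages of both samples, against 170 and 378 CPM in Sertoli cells. Leydig cells had 5.68 and 6.44 CPM of it and macrophages 13.5 and 11.6 CPM. 1700011M02Rik (chrX:102908905-102909651), which overlaps Dmrtc1a, had 2.39 to 15.0 CPM over the germ stages, against 123 and 308 CPM in Sertoli cells. Both stood at 32.5 and 31.5 CPM in the low-count barcodes, and their log2 fold changes in germ over somatic cells were -2.36 ± 0.27 and -1.74 ± 0.36 (SE, edgeR adjusted p = 2e-08 and 0.00015). These were the members above 100% of their highest germ level in Sertoli cells of both samples. 1700016F12Rik marked Leydig cells, with 14.8 and 13.7 CPM there and at most 1.07 CPM at any germ stage. It had 0.819 and 4.07 CPM in Sertoli cells and 6.74 and 3.47 CPM in macrophages, and it fell by 6.20 on the log2 scale. In at least 1 sample it had under 10 UMIs over the germ stages, so the size of that fall is not firm. In spermatogonia 3 counts were worth 3.22 and 1.73 CPM, and in macrophages 10.1 and 3.47 CPM. 1700123O20Rik (protein-coding, chr14:54686171-54690742, overlapping Acin1) had 57.4 and 60.0 CPM in spermatocytes, 45.5 and 61.5 CPM in Leydig cells and 37.0 and 59.0 CPM in macrophages. It thus differed little between those classes and was at 4.50 and 3.00 CPM in elongating spermatids. 1700060C20Rik, 1700086O06Rik and 1700017B05Rik were the other members, with log2 fold changes of -2.14, -1.20 and -0.53. 1700060C20Rik had 0 UMIs in spermatogonia of both samples and 1.58 and 1.61 CPM in spermatocytes, so the size of its fall is not firm.

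Among the members with the largest germ over somatic rises, 1700094M24Rik (lncRNA) had 49.5 and 55 CPM in round spermatids. It had 34.8 and 33.2 CPM in elongating spermatids, against 13.1 and 15.9 CPM in Sertoli cells and 0 UMIs in macrophages. In macrophages 3 counts were worth 10.1 and 3.47 CPM, so the size of its rise is not firm. 1700011B04Rik had 24.3 and 29.8 CPM in round spermatids, against 6.55 and 7.77 CPM in Sertoli cells. 1700017L05Rik had 76.8 and 54.5 CPM in elongating spermatids, against 40.1 and 19.6 CPM in Sertoli cells. Sertoli levels were thus within several fold of the germ level even here. 1700124M09Rik, 1700027H10Rik, 1700105G05Rik, 1700019F05Rik and 1700054O05Rik completed the list, with log2 fold changes from 3.81 to 4.47. That of 1700027H10Rik, 4.32 ± 1.76 (SE, edgeR adjusted p = 0.038), turned to -0.26 with at least 2000 UMIs per cell.

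Open chromatin near the members was compared between genotypes in each sorted population. Of 390 positioned members, 297 and 306 (76.2% and 78.5%) had an ATAC peak within 5 kb in 4C-sorted cKO cells, against 286 and 285 (73.3% and 73.1%) in 4C-sorted wild-type cells. Over all 26656 positioned genes the shares were 75.1% and 75.7% in cKO, against 74.0% and 74.8% in wild type. The members' difference was 4.10 percentage points (two-sided exact permutation test, p = 0.333, the smallest p that 2 against 2 libraries allow), against 1.02 points over all genes. It turned to -4.87 points with peaks of −log10 q of at least 5. In cKIT+ cells 305 and 299 members (78.2% and 76.7%) had a peak in cKO, against 236 and 290 (60.5% and 74.4%) in wild type, a difference of 10.0 points (exact permutation test, p = 0.333). Over all genes the shares were 82.8% and 81.5% in cKO, against 70.7% and 80.6% in wild type, a difference of 6.46 points. With lists cut to the length of the shortest, the members' difference turned to -4.74 points. Wild-type cKIT+ library 1 stood apart, with 44697 peaks in its list, against 112518 to 127222 in the other cKIT+ lists, and without it the difference was 3.08 points. The genotype differences of the populations were -5.90 points apart (exact permutation test, p = 0.778), and 1.03 points apart without that library. The 4C minus cKIT+ difference over both genotypes was 2.82 points (exact permutation test, p = 0.771), against -4.04 points over all genes, and the members' value was -1.15 without that library. The depth of the ATAC libraries is unknown, and 4C-sorted lists held 54059 to 59417 peaks. With all lists cut to the length of the shortest, the 4C minus cKIT+ difference was 19.7 points (exact permutation test, p = 0.0286), and all genes gave 3.94 points with the same p. A library pools all cells of a sort, so fewer cells with an open site and less opening per cell cannot be told apart.

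Peaks that separated the genotypes were few. In 4C-sorted cells 13 members (3.33%) gained a peak within 5 kb, present in each cKO and absent from each wild-type list, where 1.17% of all genes did, and 2 (0.513%) lost one, where 0.878% did. 1700024P04Rik, the H2B-like histone gene above, led the gains by the authors' fold enrichment over local background, at 5.46 and 4.99 in the cKO lists, and had no peak in any other of the 8 lists. 1700034B16Rik followed at 3.99 and 3.96, then 1700024I08Rik, 1700048O14Rik, 1700071M16Rik, 1700063O14Rik, 1700015F17Rik and 1700041C23Rik. The losses were 1700072B07Rik and the X-linked 1700121L16Rik. In cKIT+ cells 8 members (2.05%) gained a peak, where 1.35% of all genes did, and 1 (0.256%), 1700003L19Rik, lost one, where 0.203% did. 1700084D21Rik, which rose most at spermatid elongation, led these gains at 6.53 and 4.93 in the cKO lists, and its 4C-sorted lists all held a peak. The others were 1700025J12Rik, 1700019E08Rik, 1700023F02Rik, 1700116B05Rik, 1700128E19Rik, 1700063O14Rik and 1700012J15Rik. 1700063O14Rik (chr5:91766242-91767300) gained in both populations, at 3.33 and 3.64 in 4C-sorted and 3.3 and 3.77 in cKIT+ cKO cells. With peaks of −log10 q of at least 5, the 4C counts turned to 6 gains (1.54%, where 0.788% of all genes gained) and 14 losses (3.59%, where 1.52% lost). The cKIT+ gains came to 27 (6.92%, where 4.28% of all genes gained). Leaving out a library loosens the rule, since 1 list then stands for its group. It gave 19 to 24 gains in 4C-sorted cells (4.87% to 6.15%, where 1.93% to 2.61% of all genes gained). In cKIT+ cells it gave 71 gains without wild-type library 2 (18.2%, where 11.3% of all genes gained). Without wild-type library 1 it gave 15 (3.85%, where 1.85% did). Without cKO libraries 1 and 2 it gave 13 and 14 (3.33% and 3.59%, where 1.82% and 2.52% did).

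All 8 lists had a peak within 5 kb for 181 members (46.4%, against 63.6% of all genes), and none did for 28 (7.18%, against 12.2%). Of the 390 positioned members 291 were lncRNA genes, against 4733 of all 26656 genes, and these shares were not split by kind. The strongest of the members with a peak in all 8 lists, by mean fold enrichment, were 1700039M10Rik, 1700030K09Rik, 1700029J07Rik, 1700102H20Rik, 1700030J22Rik and 1700024G13Rik. 1700039M10Rik (lncRNA, chr14:57571614-57572368) was at 9.77 and 10.8 in 4C-sorted cKO cells and 9.57 and 10.4 in wild type, and at 13.2 and 13.6 in cKIT+ cKO cells and 8.28 and 9.89 in wild type. Of the 11 X-linked members, 81.8% to 100% had a peak in the 4C-sorted lists, against 54.5% to 63.6% in the cKIT+ lists. The share over all X-linked genes was not computed, so whether this difference is particular to members is unknown. Protein-coding members gave 86.2% to 90.4% in 4C-sorted lists, against 74.5% to 80.9% in cKIT+ lists. All protein-coding genes gave 79.4% to 80.5% in 4C-sorted lists, against 76.7% to 85.7% in cKIT+ lists. These differences were not tested.

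Over the promoter windows themselves the shares differed in size by stage of highest level. In 4C-sorted cKO cells a peak covered 92.6% and 94.4% of the 54 windows of members highest in spermatocytes, against 94.4% and 94.4% in wild type. It covered 49% and 53.1% of the 98 windows of members highest in round spermatids, against 51.0% and 50%. Of the 114 windows of members highest in elongating spermatids it covered 36% and 37.7% in cKO, against 26.3% and 25.4% in wild type. The genotypes did not overlap in that last group. Nor did they over all 1931 genes highest in elongating spermatids, with 45.4% and 47.3% in cKO, against 44.4% and 44.1% in wild type. The difference was 11 points for those members and 2.07 points for all such genes. The members' difference was -0.877 with peaks of −log10 q of at least 5 and 7.89 with lists cut to 1 length. It carries no test. Over all 316 member windows the shares were 52.5% and 54.4% in 4C-sorted cKO, against 48.7% and 48.7% in wild type, and 38.0% and 37.3% in cKIT+ cKO, against 31.3% and 32.6% in wild type. The differences were 4.75 and 5.70 points, against 1.29 and 5.91 points over all promoters, and the cKIT+ difference was near that background.

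**Figure D5:**
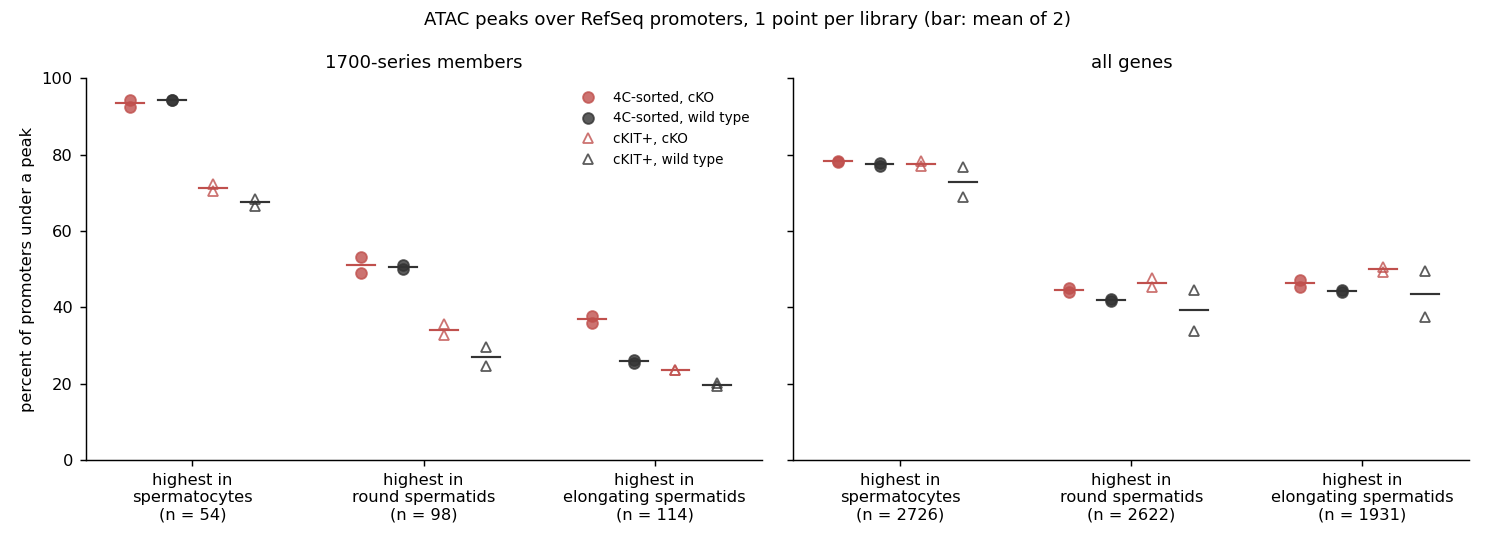
Percent of RefSeq promoter windows under an ATAC peak, 1 point per library and a bar at the mean of each group, for members (left) and all genes (right) by stage of highest level, with cKO in red, wild type in black, 4C-sorted cells as circles and cKIT+ cells as triangles. Among members highest in elongating spermatids the 4C-sorted cKO libraries lie at 36% and 37.7%, above the wild-type libraries at 26.3% and 25.4%.

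A promoter peak in both cKO and neither wild-type 4C list was found for 12 members (3.80%, where 1.04% of all promoters had one), of which 7 were highest in elongating spermatids, and the reverse for 2 (0.633%, where 0.511% did). The 7 were 6.14% of the members highest there, against 1.40% of all genes highest there. With peaks of −log10 q of at least 5 the counts turned to 2 gains and 8 losses (0.633% and 2.53%, where all promoters gave 0.562% and 1.03%). Members highest in elongating spermatids then had 1 gain and 2 losses (0.877% and 1.75%, against 0.570% and 1.29% of all genes highest there). With lists cut to 1 length there were 7 gains and 2 losses (2.22% and 0.633%, where all promoters gave 0.988% and 0.562%). Of these gains 3 were in members highest in elongating spermatids (2.63%, against 1.40% of all such genes). Besides 1700024P04Rik the 7 gains in members highest in elongating spermatids held the protein-coding 1700012B07Rik, at 4.40 and 4.43 in the cKO lists, and the X-linked 1700020N15Rik, at 4.00 and 4.35, none with a peak in another list. 1700030F04Rik, 1700025M24Rik, 1700042G07Rik and 1700110K17Rik were the others. 1700029J03Rik, at 3.89 and 3.29 in the wild-type lists, and 1700126H18Rik, at 3.24 and 3.54, were the losses. In cKIT+ cells 5 members gained (1.58%, where 1.48% did) and 1 lost a promoter peak (0.316%, where 0.0999% did), 1700010B08Rik. The gains were 1700018G05Rik, 1700019P21Rik, 1700026F02Rik, 1700063O14Rik and 1700067K01Rik. 1700018G05Rik is the Sertoli transcript above, with peaks of 4.01 and 5.46 in the cKIT+ cKO lists.

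Between the populations, 17 members (5.38%, where 1.38% of all promoters did) had a promoter peak in all 4 lists of 4C-sorted and no list of cKIT+ cells, and no member had the reverse, where 0.666% of all did. Among the 17 were the abundant spermatocyte lncRNA 1700028J19Rik, at 3.9 and 4.39 in cKO and 5.79 and 5.40 in wild-type 4C lists, and the round spermatid gene 1700001J03Rik, at 4.65 and 4.51 in cKO and 5.82 and 6.16 in wild type. 1700116B05Rik had the highest fold of them, 6.75 and 8.23 in cKO and 11 and 8.72 in wild type. These 3 were chosen after their values were seen, and folds from lists of different length are given as descriptions. A peak in all 8 lists covered 77 member windows (24.4%, against 35.4% of all), and none covered 109 (34.5%, against 40.9%). Of the 316 member windows 238 were of lncRNA genes, against 9533 of 27025 promoters. Within lncRNA genes the first difference turned, with 21.01% of members under a peak in all 8 lists, against 11.99% of promoters. No list covered 39.08%, against 62.41%. Protein-coding members gave 34.62% in all 8 lists, against 48.16%, and 20.51% in none, against 29.1%. These differences were not tested.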

How the data were processed

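UMI counts per gene and barcode were deposited by the authors, made with Cell Ranger 7.1.0 (sample 1) and 9.0.1 (sample 2) per the file headers. ATAC peaks were called by the authors per library, and the submitters' processing notes name Bowtie2, MACS2, cutadapt and Seurat 4.1.0 and the labels name mm10. Each deposited peak carries a fold enrichment (a ratio), a score and −log10 p and q values from the authors' caller, used here only to rank or filter peaks. Parameters of the authors' steps are not given in the sources used here.

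Barcodes with at least 1000 UMIs, 500 genes and at most 10% mitochondrial UMIs were kept, which left 8098 and 14262, and 685 and 1329 doublets called by Scrublet (scanpy 1.11.5) were removed. Cells were clustered in each sample (2000 variable genes, 30 components, Leiden resolution 1) and clusters named from marker lists by a score whose rule was set after the clusters were seen. Counts were summed per sample and class and fitted together with edgeR 4.0.16 (quasi-likelihood, TMM, low-count filter, Benjamini-Hochberg over all genes), with the sample as a block because the classes of 1 sample share a suspension. Deviations of same-numbered sums correlated at a median of 0.14 over 21 pairs, with a range of -0.15 to 0.37. On simulated counts for round spermatids over spermatocytes (17950 genes), 38% of 2-fold, 98% of 4-fold and 100% of 8-fold changes were recovered. The changed genes were drawn only from those above a minimum mean level. Every gene had the same dispersion, and no sample effect was added. These rates therefore need not hold for members at low levels.

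A peak counted for a gene when it lay within 5 kb of the RefSeq GRCm38.p6 bounds, and shares were compared by exact permutation over libraries. The members and the comparison lists were chosen with earlier results of these data known. Named members are the 8 largest called changes per direction and contrast, the 10 highest levels, up to 8 gained and lost peaks per population and the 6 strongest shared peaks. Leaders of single stages, X-linked members and promoter examples were chosen after their values were seen. Alternatives were DESeq2 1.42.0, RLE scaling, other filters, doublets kept, other clusterings, other peak thresholds and leaving out replicates. Intervals are not given for ATAC because its depth is unknown, and UMI floors cover counting error only.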

Additional observations from a re-analysis of the deposited data

Results flagged for a closer look

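Barcodes of 10 to 100 UMIs in sample 1 lay outside every comparison and still held the members at 29247 CPM in sum, 2.92% of their UMIs, between the spermatocyte share of 1.91% and the round spermatid share of 4.50% in the same sample. The matrix of sample 2 starts at 500 UMIs, so the same value could not be taken there.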

How the results depend on the processing

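Of 481 recomputed values of the named members, 447 kept their direction and side of the threshold, 33 kept only their direction and 1 turned: 1700027H10Rik in germ over somatic cells was -0.26 with at least 2000 UMIs per cell. Against TMM, RLE scaling moved the median of all genes by -0.41, 0.42, 0.30 and 0.16 at the steps in the order given in the report. The causes of the changes below were not tested, and the counts are of members alone, with no share over all genes under the same setting. Clusters with a clear name, zero-UMI bounds and promoter settings were chosen after seeing the data.

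For spermatocytes over spermatogonia, falls numbered 13 with RLE, 13 with DESeq2, 4 with every gene of at least 1 UMI, 4 with doublets kept and 3 with at least 2000 UMIs. The median was 1.48 with RLE, 1.14 with DESeq2, 1.22 with clear names, 1.47 with doublets kept, 2.60 with at least 2000 UMIs, 1.35 with zeros at their bound and 2.08 to 2.37 leaving out a replicate. For round spermatids over spermatocytes the median was 3.66 with RLE, 3.66 with DESeq2, 2.89 with every gene, 3.65 with clear names and 2.90 to 3.24 leaving out a replicate. For elongating over round spermatids, DESeq2 gave 35 falls, and doublets kept gave 60 rises, 28 falls and a median of 0.23. The median was 0.62 with RLE, 0.62 with DESeq2, 0.39 with clear names, 0.19 at Leiden resolution 2, 0.17 with at least 2000 UMIs and 0.31 to 0.32 leaving out a replicate. For germ over somatic cells, doublets kept gave 149 rises, 4 falls and a median of 0.63. The median was 1.40 with RLE, 1.34 with DESeq2, 1.32 with every gene, 1.43 with clear names, 1.65 at Leiden resolution 2, 0.99 with at least 2000 UMIs and 1.30 to 1.41 leaving out a replicate. Leaving out a replicate gave 8 to 11 members highest in spermatogonia, 80 to 107 in spermatocytes, 172 to 188 in round and 177 to 179 in elongating spermatids. The somatic level was 22.5% in Sertoli cells with at least 2000 UMIs, 10.4% in Leydig cells with doublets kept, and in macrophages 16% with doublets kept, 4.33% at Leiden resolution 2 and 13.7% with at least 2000 UMIs.

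Without the replicate block the rises and falls were 206 and 5 into spermatocytes, 296 and 30 into round spermatids, 119 and 43 into elongating spermatids and 265 and 7 in germ over somatic cells. With the replicate number as a block, exact permutation p-values of the ATAC shares were 0.5 in 4C-sorted cells, 0.5 in cKIT+ cells, 0.778 for 4C minus cKIT+ and 0.875 for the difference of the genotype differences.

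The share of members with a peak differed by -4.87 points between cKO and wild type in 4C-sorted cells at −log10 q of at least 5, and by 2.95 to 5.26 leaving out a library. In cKIT+ cells it was -4.74 with lists cut to 1 length and 3.08 to 16.9 leaving out a library. The 4C minus cKIT+ difference was 19.7 with lists cut and -1.15 to 4.74 leaving out a library, with p from 0.0286 to 0.971. The difference of the genotype differences was 9.62 with lists cut and -12.8 to 1.03 leaving out a library, with p from 0.0556 to 0.889. In 4C-sorted cells gains were 6 at the stricter q and 19 to 24 leaving out a library, and losses 14, 1 with lists cut and 5 to 10. In cKIT+ cells gains were 27 at the stricter q, 2 with lists cut and 13 to 71 leaving out a library. Losses there were 2 within 1 kb, 2 by overlap, 0 at the stricter q, 5 with lists cut and 2 to 8 leaving out a library. Over promoters, the 4C difference was -3.32 at the stricter q for all members and -0.877 for those highest in elongating spermatids, and the cKIT+ difference was -3.01 and -3.95 with lists cut.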
